A study of Mus musculus with 8 samples.

Results

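The fibulins are a small family of secreted glycoproteins of the extracellular matrix, and the members named for study were Fbln1, Fbln2, Fbln5, Fbln7, Efemp1 (fibulin-3) and Efemp2 (fibulin-4). They were found as rows of the deposited table whose only gene symbol is a member's. That gave 5 of the 6 genes, out of 30142 genes with such a row, and each of the 5 had 1 row. Efemp2 is not analysed here.

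The tissue was the ascending aorta of male mice aged 10 weeks, on a C57BL/6J background. Fbn1mgR/mgR mice and their wild-type controls were bred from heterozygous Fbn1mgR/+ parents, and each genotype had 4 arrays (mgR611, mgR612, mgR613 and mgR614 against WT675, WT676, WT742 and WT744). The mgR allele is a germline hypomorphic allele of Fbn1, the gene of the microfibril protein fibrillin-1, so it lowers fibrillin-1 in every tissue; homozygotes serve as a model of severe Marfan syndrome. The question addressed is how the aortic transcriptome differs between these genotypes.

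Fibulins are built from repeated calcium-binding EGF-like modules and a shared module at the carboxy terminus. Fibulin-5 and fibulin-4 help to assemble elastic fibres: they bind tropoelastin, bring it to microfibrils and to lysyl oxidase, and bind latent TGF-beta binding proteins. Mice that lack fibulin-4 in smooth muscle develop ascending aortic aneurysms, and mice without fibulin-5 have fragmented elastic laminae and a stiff aorta. The larger fibulin-1 and fibulin-2 bind fibronectin, nidogen and proteoglycans such as versican and aggrecan.

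In the Fbn1mgR/mgR aorta, 1 of the 5 fibulin genes rose, 0 fell and 4 did not pass the test. The gene that rose was Fbln7, by 2.21-fold (95% interval 1.76 to 2.77, n = 4 each). Fbln1 had the lowest difference, with every mutant array below every wild-type array, but did not pass the adjusted threshold. Fbln5 and Efemp1 had differences near 0 on the log2 scale, with intervals of unequal width, and Fbln2 was at 0.42. Across all 32957 transcript clusters tested (the array's gene-level units), 1.40% were called higher and 0.464% lower at an adjusted p under 0.05. At an unadjusted p under 0.05 the fibulins held 1 higher and 1 lower gene, against 7.59% and 6.68% of all clusters. With 5 genes, the family's counts are too small to be read against these shares.

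Values are the authors' log2 signals, so a difference of 1 is a doubling. Signal of one gene cannot be set against that of another as a level. Differences are Fbn1mgR/mgR minus wild-type, tested with limma across all clusters and adjusted by Benjamini-Hochberg. Nothing in the labels states that each array stands for its own animal, so the p-values speak of the spread between arrays, and part of that spread could be technical.

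Array medians lay between 3.95 and 4.07. The mean of 12 contractile smooth muscle markers was 11.8 to 12.9 in mutant and 12.6 to 13.4 in wild-type arrays, with Acta2 at 19.1 to 19.5 and 19.5 to 19.6, near the highest value in the table (19.93). None of the 12 passed the adjusted threshold, while 10 had a difference below 0 (median -0.52, against -0.018 over all clusters). At an unadjusted p under 0.05, 4 of them were lower, against 6.68% of all clusters. The mean of 12 macrophage markers was 9.84 to 10.7 in mutant and 7.93 to 8.36 in wild-type arrays. Of the 12, 10 were called higher, against 1.40% of all clusters. Brown fat markers stood apart in 1 array of each genotype, with means of 10.0 in mgR614 and 10.3 in WT676. Their mean was at most 7.03 in the remaining mutant arrays and at most 7.94 in the remaining wild-type arrays. The transcript of Fbn1 is not analysed here, so the labels were not checked against the mutated gene. In bulk tissue, fewer cells of a type and less RNA per cell cannot be told apart.

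**Figure D1:**
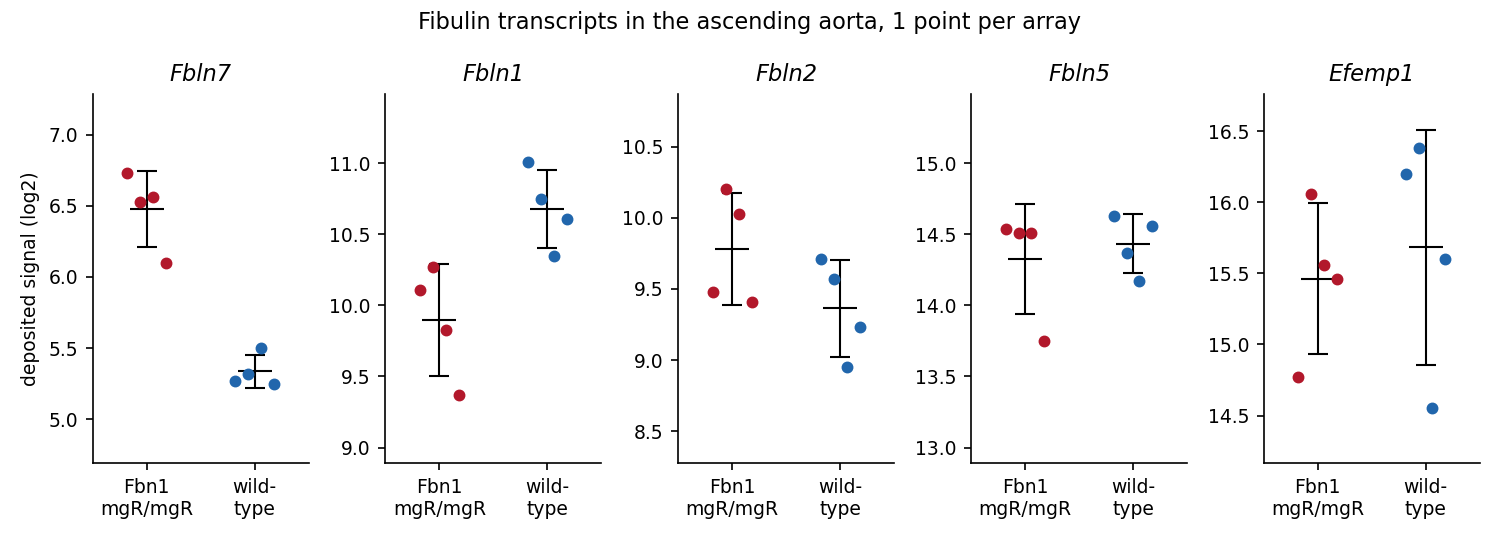
Deposited log2 signal of the 5 fibulin genes on each array (points; red Fbn1mgR/mgR, blue wild-type; bars are mean ± SD, n = 4 each), with vertical axes of equal span that do not start at 0. The genotypes are separate for Fbln7 (6.10 to 6.73 against 5.25 to 5.50) and Fbln1 (9.37 to 10.27 against 10.35 to 11.01) and overlap for the other 3 genes.

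Fbln7 encodes a fibulin with an amino-terminal sushi domain, known as a cell adhesion molecule of developing teeth, cartilage and placenta in mice. Its signal was 6.73, 6.53, 6.56 and 6.10 in mgR611, mgR612, mgR613 and mgR614, against 5.27, 5.32, 5.50 and 5.25 in WT675, WT676, WT742 and WT744. Every mutant array lay above every wild-type array, which held for 5.26% of all clusters tested. The lowest mutant value was that of mgR614. The means were 6.48 ± 0.268 in mutant and 5.34 ± 0.114 in wild-type arrays (SD, n = 4 each), a log2 difference of 1.15 (SE 0.144, limma adjusted p = 0.00731). The lowest wild-type value stood above 4.13, the 95th percentile of 1086 olfactory receptor clusters, which served as a guide to dim signals.

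The rise was past the threshold under each of 21 other settings of the fit, with differences from 1.06 to 1.27 and adjusted p from 0.00302 to 0.0308. Without mgR614 and WT676, an alternative chosen after seeing the data, it was 1.27 with 3 arrays a genotype (limma adjusted p = 0.0230). Macrophage markers moved with genotype in the same direction. The macrophage mean was 9.84, 10.7, 10.2 and 10.2 in mgR611, mgR612, mgR613 and mgR614. Fbln7 was at 6.73, 6.53, 6.56 and 6.10 in the same arrays. The part of macrophages in the rise was not tested. Chondrocyte markers were near the dim range, with a mean of 4.39 to 4.57 in mutant and 4.35 to 4.60 in wild-type arrays. One of the 7 tested was called higher, Comp, a cartilage matrix gene also made by vascular smooth muscle (log2 difference 0.89, limma adjusted p = 0.0488, and 0.0244 to 0.238 under the other settings). Of the other 6, 4 had a difference below 0. Among these were the cartilage matrix genes Chad (log2 difference -0.70) and Hapln1 (-0.29, without overlap of the genotypes). Both were lower at an unadjusted p under 0.05 and did not pass (limma adjusted p = 0.171 and 0.202). Over all clusters tested, 1.40% were called higher and 6.68% were lower at that unadjusted p. For 3.65% of them, every mutant array lay below every wild-type array.

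Among 13049 other named genes, Ntn4 had the profile nearest to that of Fbln7 over the 8 arrays, with a root mean square difference of 0.0693 between log2 values centred on each gene's mean. Ntn4 encodes netrin-4, a secreted protein that binds laminins of basement membranes. It was at 10.5, 10.4, 10.4 and 9.94 in mgR611, mgR612, mgR613 and mgR614, against 9.10, 9.14, 9.12 and 9.01 in the wild-type arrays, so that mgR614 was again the lowest of the mutant arrays. Next came Prss23, a secreted serine protease (0.178), and Sdc3, the cell surface proteoglycan syndecan-3 (0.179). Likeness over 8 arrays of a pair of genotypes rests largely on the difference between them, and all 3 genes were called higher. Prss23 (log2 difference 0.86, limma adjusted p = 0.0433) missed the threshold under other settings, at up to 0.126, while Ntn4 and Sdc3 passed under all of them.

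Fbln7 lies on chromosome 2, which also holds Fbn1. Of the 20 protein-coding genes nearest to Fbln7, 10 on each side in RefSeq order, 15 were tested. Of these, 0 passed the limma threshold, while 4 had an unadjusted p under 0.05. Over all clusters tested, 7.59% were higher and 6.68% lower at that unadjusted p, and 1.40% and 0.464% passed. The immediate neighbours Tmem87b and Zc3h8 had differences of -0.065 and -0.15. The remaining tested neighbours ran from -0.42 (Zc3h6) to 1.70 (Il1b, which encodes interleukin-1 beta; limma adjusted p = 0.0677). The phosphate transporter gene Slc20a1 was at -0.045, and Mertk, a receptor for the uptake of dying cells, at 0.52. The other 4 fibulins lie on other chromosomes. This set of neighbours was chosen after the values of Fbln7 were seen. Chromosome 2 sequence linked to the mgR allele would go with genotype in these arrays. Its part in the rise of Fbln7 cannot be told apart from that of the allele itself and was not tested.

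**Figure D2:**
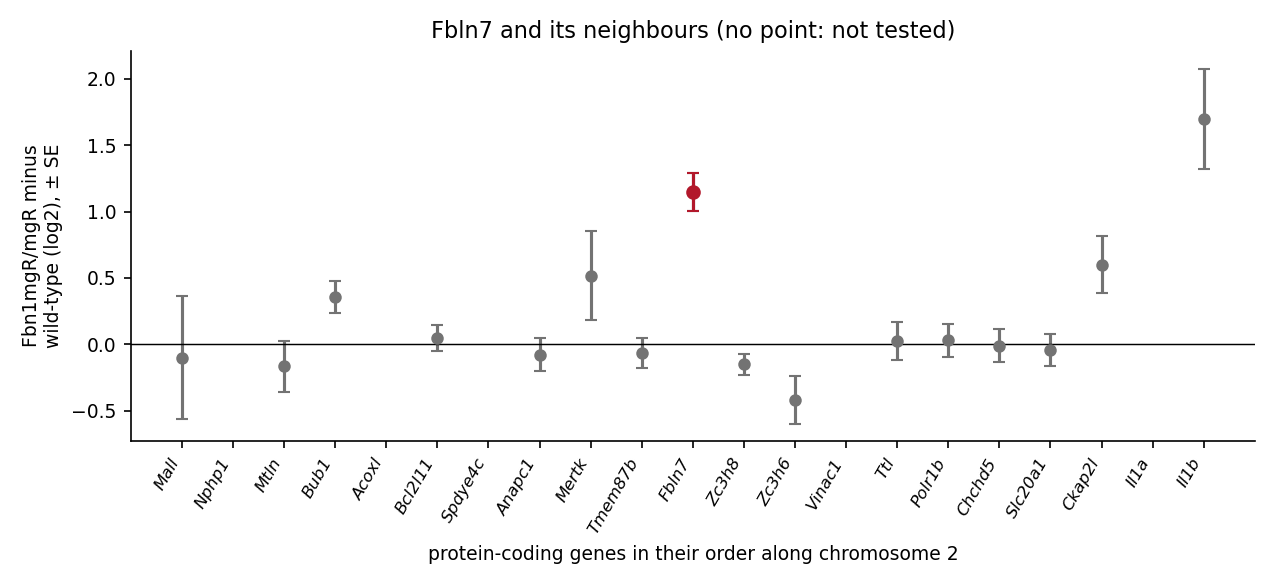
Difference between Fbn1mgR/mgR and wild-type (log2, vertical axis; bars are ± SE from limma) for Fbln7 in red and the 10 protein-coding genes on each side of it in chromosome order; genes without a point were not tested. Fbln7 is at 1.15, and its immediate neighbours are at -0.065 and -0.15.

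Fbln1 encodes fibulin-1, a component of elastic fibres and basement membranes and a cofactor of the protease ADAMTS1. Its signal was 10.11, 10.27, 9.83 and 9.37 in mgR611, mgR612, mgR613 and mgR614, against 11.01, 10.75, 10.35 and 10.61 in WT675, WT676, WT742 and WT744. No mutant array reached the lowest wild-type array, although mgR612 came close to it; such separation downward was seen for 3.65% of all clusters. The means were 9.90 ± 0.394 in mutant and 10.7 ± 0.275 in wild-type arrays (SD, n = 4 each). The log2 difference of -0.79 (SE 0.221) had an unadjusted p of 0.00658 and a limma adjusted p of 0.141, and the adjusted p was 0.0914 to 0.370 under the other settings. The array mgR614, lowest for Fbln1, was also lowest among the 8 in the means of adventitial fibroblast (11.3), contractile smooth muscle (11.8) and endothelial markers (9.21, close to 9.22 in mgR611); their part was not tested. With the fibroblast marker mean as a covariate the Fbln1 difference was -0.60 (limma adjusted p = 0.258). Of the 10 markers in that mean, 6 had a difference below 0 and 4 above, with Gsn at -1.03 (limma adjusted p = 0.112). The covariate may thus itself carry part of the genotype difference, and this value does not give the part of fibroblasts.

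The gene with the profile nearest to Fbln1 was Aldh1a1, which encodes a retinaldehyde dehydrogenase, at a root mean square difference of 0.0810. Its difference was also -0.79, and it did not pass either (limma adjusted p = 0.0854). Sorbs3, which encodes the adhesion adaptor vinexin, followed at 0.140 and Ranbp10 at 0.143.

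Fbln2 encodes fibulin-2, which binds versican and, in mice, acts with fibulin-5 in forming the internal elastic lamina. Its signal was 9.48, 10.20, 10.03 and 9.41 in the mutant arrays mgR611, mgR612, mgR613 and mgR614, against 9.71, 9.57, 8.95 and 9.23 in WT675, WT676, WT742 and WT744. The arrays mgR612 and mgR613 lay above all wild-type arrays, and the other mutant arrays lay among them. The difference was 0.42 (SE 0.237, limma adjusted p = 0.496), with a 95% interval from -0.12 to 0.95. Ctsz, the lysosomal protease cathepsin Z, had the nearest profile (0.0757), followed by Maged2 (0.0838) and Trim12c (0.122), and none of these 3 passed (limma adjusted p = 0.358 to 0.783).

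The members Fbln1 and Fbln2, close relatives in module make-up, had differences of opposite sign, and their difference within each array was compared. Log2 Fbln1 minus log2 Fbln2 was 0.63, 0.07, -0.20 and -0.04 in mgR611, mgR612, mgR613 and mgR614, against 1.30, 1.18, 1.40 and 1.38 in WT675, WT676, WT742 and WT744. The genotypes did not overlap, and the mutant arrays spread more widely (SD 0.361 against 0.0998). The mean was lower by 1.20 in the mutant arrays, with an exact two-sided permutation p of 0.0286, which is the minimum for 4 arrays against 4. Adjusted over the 2 pairs tested it was 0.0571. With the other pair at 0.800 no adjusted value under 0.05 could be reached with this number of arrays, so missing the threshold says nothing about the size of the change. Leaving out any 1 array gave a difference of -1.37 to -1.10.

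The short fibulins Fbln5 and Efemp1 were compared the same way. Log2 Fbln5 minus log2 Efemp1 averaged -1.14 ± 0.666 in mutant and -1.25 ± 0.703 in wild-type arrays (SD, n = 4 each), an overlap of nearly the whole range (exact permutation p = 0.800, also 0.800 adjusted). These 2 pairs were those of 4 planned that do not need Efemp2.

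**Figure D3:**
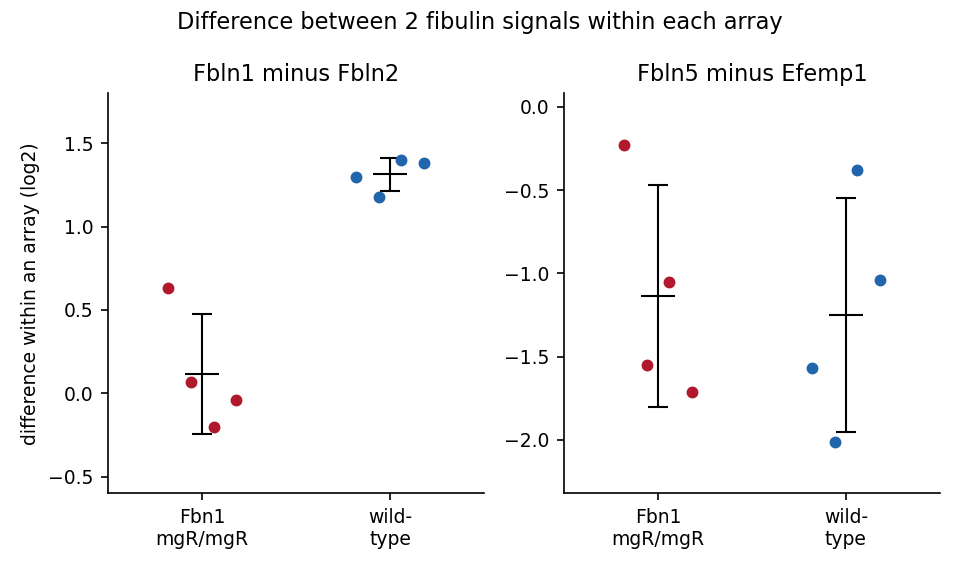
Difference between the log2 signals of 2 fibulins within each array (points; red Fbn1mgR/mgR, blue wild-type; bars are mean ± SD, n = 4 each); the height is not a ratio of transcript levels. Fbln1 minus Fbln2 is -0.20 to 0.63 in mutant and 1.18 to 1.40 in wild-type arrays, while Fbln5 minus Efemp1 overlaps.

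Fbln5 encodes fibulin-5, which binds elastin, lysyl oxidase-like 1 and, through an RGD motif, integrins. Its signal was 14.54, 14.51, 14.51 and 13.75 in mgR611, mgR612, mgR613 and mgR614, against 14.63, 14.37, 14.17 and 14.56 in WT675, WT676, WT742 and WT744. Apart from mgR614, the mutant arrays lay within the wild-type range. The difference was -0.11 (SE 0.195, limma adjusted p = 0.881), and its 95% interval in fold change ran from 0.684 to 1.26. Without mgR614 the difference was 0.088 (limma adjusted p = 0.842).

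Efemp1 encodes fibulin-3, which binds the inhibitor TIMP3 and is needed for elastic fibres of fascia in mice. It was the most variable member, at 14.77, 16.06, 15.56 and 15.46 in mgR611, mgR612, mgR613 and mgR614, against 16.20, 16.38, 14.55 and 15.60 in WT675, WT676, WT742 and WT744. Its within-genotype SD of 0.694 was above that of 97.2% of tested clusters, while that of Fbln7, 0.206, was above 46.4%. The difference was -0.22 (SE 0.412, limma adjusted p = 0.882), and the 95% interval in fold change, 0.449 to 1.64, spans a halving of the transcript. In each genotype the highest and the lowest array for Efemp1 were also the highest and the lowest in the mean of 7 mesothelial markers. That mean was 10.2 in mgR611 and 11.6 in mgR612, and 10.3 in WT742 and 12.4 in WT676. The part of mesothelial cells in the spread of Efemp1 was not tested.

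**Figure D4:**
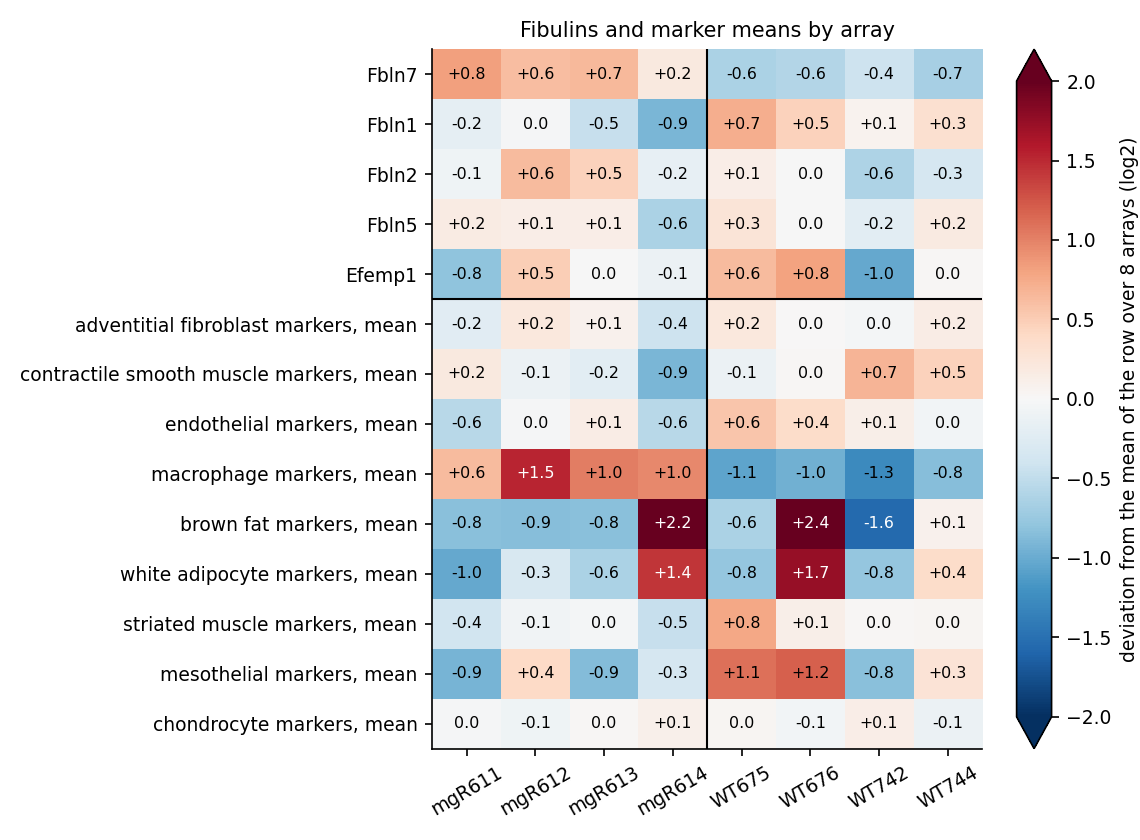
Deviation of each array from the mean of its row over the 8 arrays (log2; colours saturate at 2 and -2), for the 5 fibulins above the line and the means of 9 cell type marker lists below it; Fbn1mgR/mgR arrays are to the left. Fbln7 and the macrophage markers are positive in all mutant arrays and negative in all wild-type arrays, and Efemp1 is lowest in WT742 and mgR611.

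The known partners of the fibulins were read from 3 lists. Of 36 partner genes tested, 2 rose, 1 fell and 33 did not pass, against 1.40% of all clusters called higher and 0.464% called lower. The unadjusted p was under 0.05 for 9 partners with a positive and 4 with a negative difference, against 7.59% and 6.68% of all clusters. The median difference of the partners was 0.064, against -0.018 over all clusters.

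Acan encodes aggrecan, a large proteoglycan bound by fibulin-1 and fibulin-2. Its signal was 8.74, 8.08, 8.12 and 7.78 in mgR611, mgR612, mgR613 and mgR614, against 5.54, 6.27, 6.30 and 6.48 in WT675, WT676, WT742 and WT744. It rose by 2.03 on the log2 scale (SE 0.256, limma adjusted p = 0.00733), with the genotypes well apart. Within the mutant arrays, mgR611 was the highest and mgR614 the lowest for Acan, as for Fbln7. The same held for Fn1 (below). The array mgR614 was also the lowest mutant array for Fbln1, Fbln2, Fbln5, Mfap4 and Ltbp4, though not for Eln, Vcan or Efemp1. Fn1, which encodes fibronectin, was at 16.03, 15.89, 15.76 and 15.35 in mgR611, mgR612, mgR613 and mgR614, against 13.05, 13.55, 14.38 and 14.12 in WT675, WT676, WT742 and WT744. It rose by 1.98 on the log2 scale (SE 0.283, limma adjusted p = 0.0117), again without overlap. Without mgR614 and WT676, Fn1 was at 2.04 and missed the threshold (adjusted p = 0.0756). Vcan, the versican gene, was at 0.52 (limma adjusted p = 0.232), with mgR611 at 7.66 among the wild-type arrays and the other mutant arrays at 8.33 to 8.41. Without mgR611 it passed (0.69, adjusted p = 0.0342). The other 14 members of the basement membrane, proteoglycan and cell surface list, among them the nidogens, perlecan (Hspg2), Timp3, Sod3 and the integrin chains that bind fibulin-5, did not pass. Of these, Nid1, which encodes nidogen-1, was at 0.72 (limma adjusted p = 0.318), and it passed with the fibroblast marker mean as a covariate (1.05, adjusted p = 0.0386).

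The microfibril partner Mfap4, which binds elastin and fibrillin-1, was at 9.85, 9.73, 10.47 and 9.55 in mgR611, mgR612, mgR613 and mgR614, against 11.13, 10.81, 11.31 and 11.18 in WT675, WT676, WT742 and WT744. It fell by 1.21 on the log2 scale (SE 0.211, limma adjusted p = 0.0277) and missed the threshold without mgR611, mgR612, mgR614, WT675, WT742 or WT744 (adjusted p = 0.0613 to 0.0931), with the fibroblast covariate (0.0726) and without mgR614 and WT676 together (0.1002). Ltbp4, whose protein binds fibulin-5 and fibulin-4, was at -1.14 without overlap of the genotypes (limma adjusted p = 0.144). Emilin2 was at 0.88 (adjusted p = 0.147). The other members of that list did not pass.

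None of the 5 elastin and crosslinking genes tested passed, and 3 were higher at an unadjusted p under 0.05. Over all clusters, 7.59% were higher at that unadjusted p and 1.40% were called higher. Eln, which encodes elastin, was at 1.10 (SE 0.246, limma adjusted p = 0.0672), with mutant arrays at 13.47 to 14.39 and wild-type arrays at 12.59 to 13.43. Lox, the lysyl oxidase that fibulin-4 binds, was at 1.14 (adjusted p = 0.0969), and Loxl3 at 0.34 (adjusted p = 0.281). Without mgR612, Eln and Lox passed, with Eln at 1.32 (adjusted p = 0.0213) and Lox at 1.37 (adjusted p = 0.0432). Eln also passed where only clusters with 1 symbol were tested (adjusted p = 0.0416). Fbln5 had a difference of -0.11, and of 0.088 without mgR614. Its change was not tested against that of Eln or Lox.

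**Figure D5:**
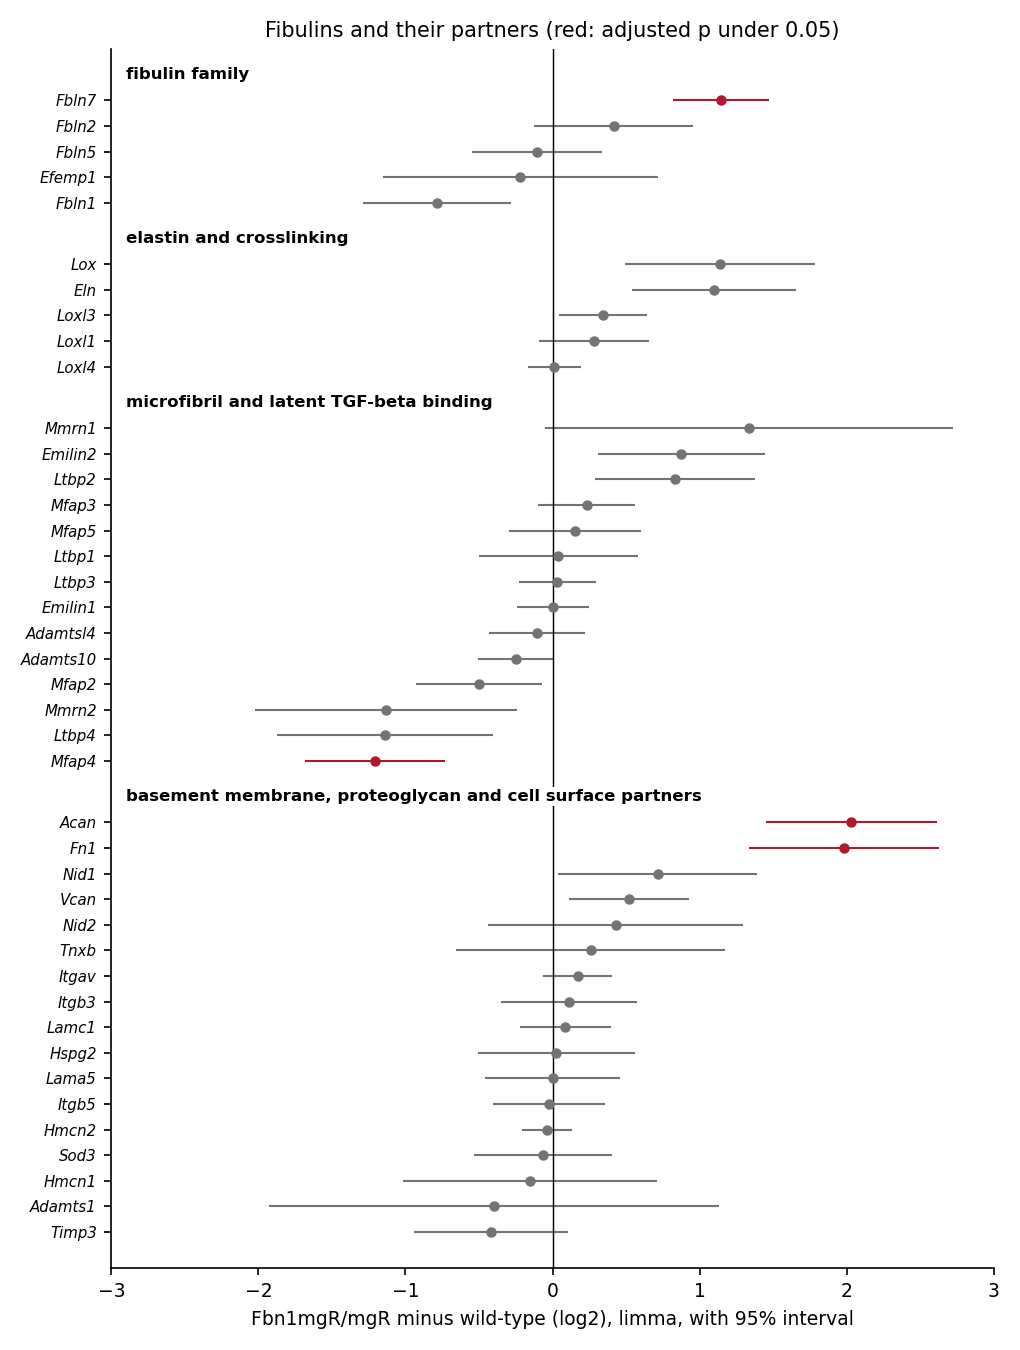
Difference between Fbn1mgR/mgR and wild-type (log2, horizontal axis; bars are 95% intervals from limma, not adjusted for multiple tests) for the 5 fibulins and 36 partners in 3 lists, ordered by size within each. Fbln7, Acan and Fn1 are called higher (red, to the right) and Mfap4 lower (red, to the left).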

How the data were processed

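Transcripts of 8 aortic samples, 4 per genotype, were measured on the Affymetrix Clariom D platform for mouse, per the labels. The deposited values are log2 signals per transcript cluster, normalized by the authors; per the submitters' processing notes, Transcriptome Analysis Console was used, while its version, the normalization and the genome build were not stated in the sources used here. Of 65956 clusters, 30604 had 1 gene symbol (827 symbols were updated through gene IDs of the RefSeq table, assembly GRCm38.p6, which also gave chromosomes and gene order), 2146 several and 33206 none. The brightest row stood for a gene.

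Clusters with a mean above the median of 4.01 (32957) entered the fit in limma 3.58.1 under R 4.3.3 (lmFit, eBayes with an intensity trend, Benjamini-Hochberg, threshold 0.05). The fit was also run on simulated data with independent noise for each cluster and array. That leaves out effects shared by many clusters of an array, and no result here rests on it. Pairs of members used an exact permutation test over 70 labellings. Python 3.11.15, pandas 2.3.3 and matplotlib 3.10.9 were used otherwise.

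Named genes were all members, each partner list's called genes and its 3 smallest p, and, for the 3 members with the largest difference, the 3 genes nearest in profile, leaving out unnamed models. Members and lists were chosen with earlier results of these data known. Of the partners listed, Loxl2 and Ecm1 are not analysed here. Alternatives were eBayes with robust hyperparameters or no trend, array weights, no or a stricter filter, clusters with 1 symbol, quantile normalization, median centring, mean rows, covariates for brown fat or fibroblast markers, a threshold of 0.10 and each array left out. Added after seeing the data were a prior variance from all clusters and a fit without mgR614 and WT676, which had the highest brown fat markers. The number of arrays limits the precision.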

Additional observations from a re-analysis of the deposited data

Results flagged for a closer look

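Within a genotype of 4 arrays, 1 array stood far from the other 3 for 3 genes, out of 32 groups of arrays examined. The Fbln5 signal of mgR614 was 13.75, while its 3 fellow mutant arrays gave 14.51 to 14.54. The Eln signal of mgR612 was 13.47, against 14.33 to 14.39 in the others, and just above the highest wild-type value of 13.43. The Vcan signal of mgR611 was 7.66, against 8.33 to 8.41 in the others, and lay within the wild-type range of 7.54 to 7.78. For Fbln5, mgR614 was below the lowest wild-type value of 14.17. Chance alone marks about 5% of such groups. The 3 values belong to different mutant arrays.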

How the results depend on the processing

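The count of fibulin genes called higher was 1 and of those called lower 0 under all 22 alternatives, and Fbln7 was the gene past the threshold under each of the 21 fits that gave it a value. The partner genes called higher numbered 2 to 4 with 1 array left out, 4 at an adjusted p under 0.10, 3 with the fibroblast covariate, 3 among clusters with 1 symbol and 1 without mgR614 and WT676 together; those called lower numbered 0 to 1 with 1 array left out, and 0 with the fibroblast covariate and without those 2 arrays. Among the fibulins, the differences of Fbln5 and Efemp1 changed sign. Fbln5 was at 0.080 with the fibroblast covariate, 0.067 without those 2 arrays and -0.19 to 0.088 with 1 array left out. Efemp1 was at 0.041, 0.013 and -0.60 to 0.013 under the same settings. Of the pairs, Fbln5 minus Efemp1 changed sign with 1 array left out (-0.19 to 0.41). Some partners that did not pass, such as Ltbp1 (-0.098 to 0.20 over the other settings) and Hspg2 (-0.10 to 0.25), also changed sign. None of these passed its test; the cause was not tested.

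Over all clusters, 460 were called higher and 153 lower, against 209 to 441 and 56 to 121 with 1 array left out, 115 and 53 without mgR614 and WT676 (3 arrays a genotype), and 765 and 362 at an adjusted p under 0.10. The calls lower were 99 without a filter and 87 with the fibroblast covariate. With a prior variance from all clusters, 507 were higher and 184 lower, with the same numbers of fibulins and partners called. Whether signals near the top of the scale, as for Acta2, are compressed was not tested, and the median SE of a difference was 0.150.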
